A study of Rattus norvegicus with 24 samples.

Results

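Podocytes are the epithelial cells that wrap the capillaries of the glomerulus, the filter of the kidney. Their interlocking foot processes are bridged by the slit diaphragm, a protein sheet that holds back plasma proteins, and loss of its parts is a known cause of proteinuria. Expression of 8 podocyte genes was examined in 2 kidney regions, renal cortex and renal medulla, of rats on a lithium diet and of control rats. These were Nphs1 (nephrin, the main adhesion protein of the slit diaphragm), Cd2ap (an adaptor that ties the slit diaphragm to actin), Podxl (podocalyxin, the charged sialomucin of the podocyte surface, which vascular endothelium also makes), Ptpro (a receptor tyrosine phosphatase of the apical membrane), Synpo (synaptopodin, an actin-bundling protein of foot processes), Nes (nestin, an intermediate filament protein), Clic5 (a protein linked to ezrin beneath the membrane) and Wt1 (a zinc finger transcription factor that maintains the podocyte state). The genes were taken by symbol as known podocyte genes, with earlier results of these data already known, and no threshold on a measured value set which of them entered. Each was represented by 1 of the 28894 transcript clusters on the arrays, of which 15097 carried a single symbol and gave 14324 genes.

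Male Wistar rats formed 2 diet groups of 6 animals. The lithium group ate food with 40 mmol lithium per kg for 7 days and 60 mmol per kg from then on, to a total of 6 months, and had a salt block to keep sodium in balance, while the control group ate a standard diet for 6 months. Both had free access to water, the labels name no engineered allele, and cortex and medulla of every animal were hybridised, which gave 24 arrays in 4 groups of 6. The tissues were portions cut from frozen kidney and not isolated glomeruli, so that fewer podocytes and less RNA per podocyte cannot be told apart in any value below. Values are log2 signal intensities, on which a difference of 1 is a doubling of signal. They bear comparison between arrays of 1 tissue for 1 gene but not between genes. Between the tissues the array medians differed, as given below.

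The authors had removed the effect of scan date from the values, and this left a trace in the arrays. In cortex the array of lithium animal 17 differed from the mean of the lithium arrays, itself included, by at most 6.667e-05 in any cluster. It thus held no value of its own, and lithium cortex is described with n = 5. The median signal of an array lay between 6.12 and 6.22 in medulla and between 5.75 and 5.83 in cortex. Lithium was compared with control by limma, separately for each tissue, with terms for diet and scan group. Clusters entered the test where 4 or more of the 12 arrays had a log2 signal of 6 or higher. A gene is called changed where the Benjamini-Hochberg adjusted p over all clusters kept was under 0.05.

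Nphs1 and Podxl carry most of what follows, and the 250 bases before their annotated starts are shown as a description. The 2 genes varied together across cortex arrays and parted in medulla. There Nphs1 lay at the filter, with 2 of 6 arrays in each diet group at 6 or higher. The sequences are those of RefSeq on build GRCr8, matched by symbol. The search was for GNGNGGGNG on both strands, a short motif ascribed to Wt1 and the related Egr factors, with overlapping matches counted, and capitals mark the bases covered by a match. The window of Nphs1 lay on the plus strand at chr1:94848011-94848260 and that of Podxl on the minus strand at chr4:61149132-61149381.
Nphs1: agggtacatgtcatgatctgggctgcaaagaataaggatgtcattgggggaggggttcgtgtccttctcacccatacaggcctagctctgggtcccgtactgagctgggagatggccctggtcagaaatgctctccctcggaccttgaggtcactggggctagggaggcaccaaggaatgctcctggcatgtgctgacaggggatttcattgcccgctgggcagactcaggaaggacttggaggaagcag
Podxl: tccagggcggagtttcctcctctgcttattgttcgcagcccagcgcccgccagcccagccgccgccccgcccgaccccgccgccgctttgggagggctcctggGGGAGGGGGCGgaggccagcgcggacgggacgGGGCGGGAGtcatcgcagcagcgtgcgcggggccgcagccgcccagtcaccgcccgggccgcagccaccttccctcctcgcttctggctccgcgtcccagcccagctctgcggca
The Podxl window held 3 matches and 30 CG dinucleotides. The Nphs1 window held 0 matches and 4 CG dinucleotides, against a median of 5 over all 33469 promoters of this length. A match was present in 4 of the 8 podocyte genes (Podxl, Cd2ap, Ptpro and Nes) and in 33.0% of all promoters. The share over all promoters was not matched for CG content. A match describes letters in the window and not binding, and a link between these windows and the expression values was not tested.

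The first comparison was of lithium and control cortex, where glomeruli lie. None of the 8 podocyte genes was called changed (0 of 8), in an assay in which 0.574% of 13766 clusters were called, 64 higher and 15 lower. Of the 8 log2 differences 6 were negative, their median was -0.03, and the median over all clusters tested was 0.01. The share of all clusters with an unadjusted p under 0.05 was 7.54%, and Nphs1 was the member among the 8 that fell in it.

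Nphs1 (cluster 10705892) read 7.25, 7.16, 7.03, 7.15 and 7.37 in lithium cortex of animals 6, 18, 19, 21 and 22. In the 6 control cortices its lowest value was 7.09, its median 7.52 and its highest 7.88. Control animal 1 lay within the lithium range, and the other 5 controls lay above every lithium array. The mean was 7.19 ± 0.13 in lithium cortex (SD, n = 5) and 7.51 ± 0.26 in control cortex (SD, n = 6). The log2 difference was -0.32 with a standard error of 0.13 and a 95% interval of -0.62 to -0.03, a change in signal of -19.9%. With limma its p was 0.0358 and its adjusted p 0.616, so it did not pass. Within scan groups the difference was -0.24, -0.51 and -0.19, and when 1 animal was left out in turn it ran from -0.41 to -0.25 with an adjusted p no lower than 0.144.

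The other genes of the filtration barrier were measured with intervals that held 0. Cd2ap (cluster 10921951), the partner of nephrin inside the cell, read 9.50, 9.27, 9.26, 9.37 and 9.06 in lithium cortex and had a median of 9.17 in control cortex, between 8.71 and 9.46. Its log2 difference was 0.14 (95% interval -0.17 to 0.46, limma adjusted p = 0.859). Podxl (cluster 10861662) read 9.29, 9.16, 9.24, 9.23 and 9.52 in lithium cortex, against a median of 9.42 in control cortex between 8.94 and 9.88. The lithium arrays all lay within the span of the controls. Its log2 difference was -0.12 (95% interval -0.46 to 0.21, limma adjusted p = 0.883). Ptpro (cluster 10859342) read 7.68, 7.13, 7.27, 7.14 and 7.68 in lithium cortex and ran from 6.43 to 8.10 in control cortex, the widest spread of the 8, and its interval of -0.60 to 0.52 was wide for that reason.

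Of the remaining 4 genes, Synpo (cluster 10804567) was the one measured most closely. It read 6.69, 6.62, 6.86, 6.83 and 6.77 in lithium cortex and ran from 6.66 to 6.87 in control cortex, which gave a log2 difference of -0.01 (95% interval -0.19 to 0.18). In signal this interval runs from -12.3% to 13.2%. Wt1 (cluster 10838242) ran from 6.48 to 6.75 in lithium cortex and from 6.15 to 7.00 in control cortex, with a difference of 0.01 (95% interval -0.30 to 0.32). Nes (cluster 10816409) ran from 6.25 to 6.55 in lithium cortex and from 6.08 to 6.69 in control cortex, and its difference was -0.05 (95% interval -0.32 to 0.22). Clic5 (cluster 10926642) ran from 8.59 to 8.86 in lithium cortex and from 8.49 to 8.89 in control cortex, with a difference of -0.01 (95% interval -0.25 to 0.22). The adjusted p-values of these 4 genes with limma lay between 0.946 and 0.992. The groups overlapped for all 8 genes, where 2.57% of the 13766 clusters tested in cortex had no overlap.

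**Figure D1:**
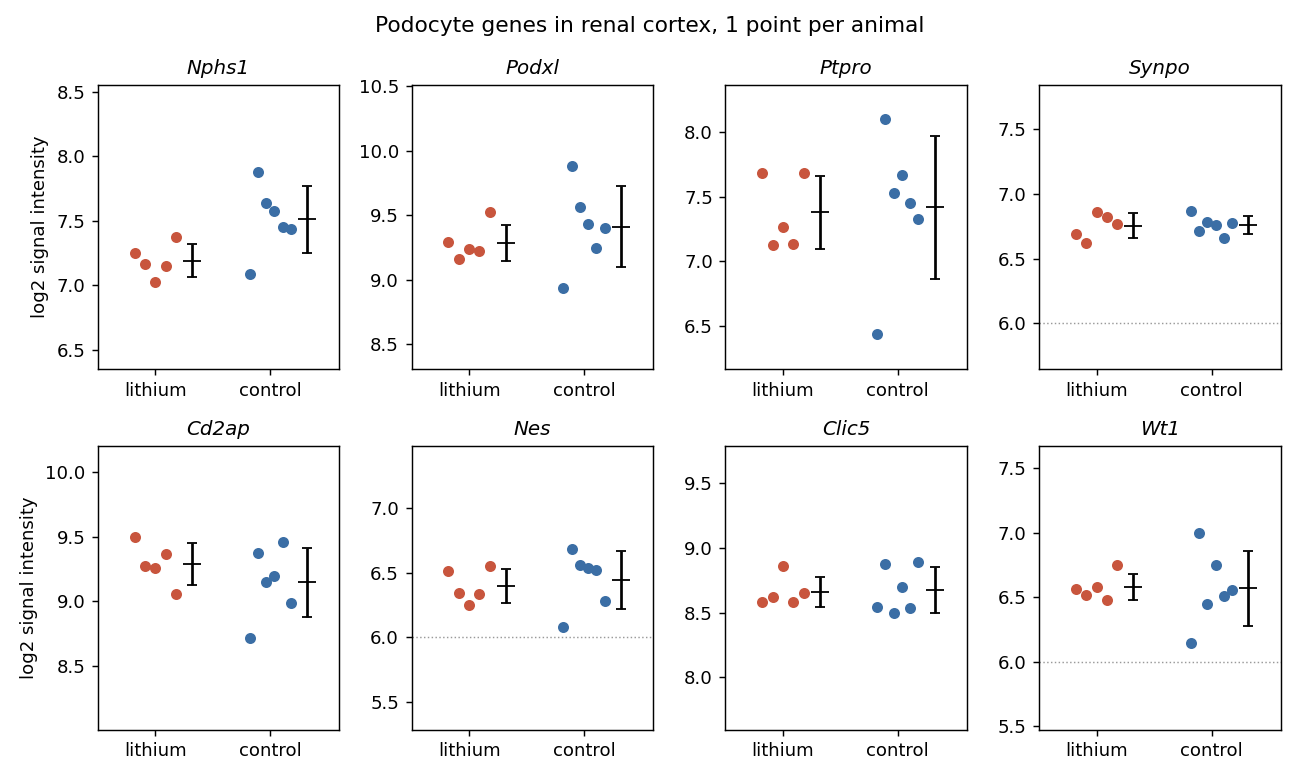
Log2 signal intensity of the 8 podocyte genes in renal cortex, 1 point per animal, with lithium (5 arrays with a value of their own) left of control (6 arrays) and the mean ± SD beside each group. A dotted line marks the filter at 6. Lithium and control arrays overlap for every gene, where 2.57% of all clusters tested had no overlap. For Nphs1 5 of the 6 controls lie above the lithium arrays.

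Other podocyte genes were read from 4 lists of the slit diaphragm, the cytoskeleton, transcription factors and the cell surface. Of 41 genes listed 25 had a cluster and 23 passed the filter in cortex, where 0 were called in either direction, 2 had an unadjusted p under 0.05 and the median log2 difference was -0.02. Plce1, the phospholipase C epsilon needed for glomerular development, differed by 0.16 in cortex (95% interval -0.19 to 0.51, limma adjusted p = 0.865). Trpc6, a calcium channel at the slit diaphragm, was under the filter in cortex. The lists of cells that share the cortex also had 0 calls: 0 of 11 endothelial genes, 0 of 8 mesangial and juxtaglomerular genes, 0 of 5 parietal epithelial genes and 0 of 12 proximal tubule genes. The mean of the endothelial list was 7.45 ± 0.17 in lithium cortex (7.31 to 7.72) and 7.34 ± 0.09 in control cortex (7.21 to 7.44).

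The medulla has no glomeruli other than any cut along with it at the border with the cortex, and the same genes were therefore read there as a measure of tissue content. Podxl fell in lithium medulla, the 1 of 7 podocyte genes tested that was called, while 1.19% of 16025 clusters were called in this tissue, 0.83% higher and 0.356% lower. Wt1 lay under 6 on all 12 medulla arrays and was not tested. The median difference of the 7 genes was 0.02, and that of all clusters tested was -0.01.

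Podxl had its lowest value of 8.54, its median of 8.87 and its highest of 9.39 in the 6 lithium medullas, against 9.43, 9.82 and 10.38 in the 6 control medullas. Every lithium medulla lay below every control medulla, though lithium animal 6 and control animal 29 were only a small step apart. The mean was 8.88 ± 0.31 in lithium medulla and 9.89 ± 0.36 in control medulla (SD, n = 6 each). The log2 difference was -1.01 with a standard error of 0.19 and a 95% interval of -1.43 to -0.59, a change in signal of -50.3%, with a limma adjusted p of 0.0344. Among all clusters tested in medulla, 1.6% had every lithium array below every control. Within the 3 scan groups the difference was -0.85, -1.15 and -1.03. The adjusted p lay close to the threshold: leaving out 1 animal kept the difference between -1.13 and -0.89, but the call held only without lithium animal 6 (adjusted p = 0.00928) or control animal 29 (adjusted p = 0.021), and without any of the other 10 animals the adjusted p lay between 0.0542 and 0.102. The unmoderated two-way fit of the methods gave an adjusted p of 0.11.

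Synpo had a difference of the opposite sign in medulla and did not pass the test. It had 6.85, 6.99 and 7.13 as its lowest, median and highest value in lithium medulla, against 6.502, 6.71 and 6.75 in control medulla. Every lithium medulla lay above every control medulla, an arrangement found in 2.12% of all clusters tested. Its log2 difference was 0.31 with a standard error of 0.09 and a 95% interval of 0.12 to 0.51 (limma adjusted p = 0.105). It passed in the fit without scan group (adjusted p = 0.0318), in which 6.56% of all clusters were called, and without lithium animal 6 (adjusted p = 0.049). Its differences within scan groups were 0.17, 0.31 and 0.45.

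The remaining genes did not separate the diets in medulla. Nphs1 lay at the filter, from 5.47 to 6.32 in lithium medulla and from 5.72 to 6.17 in control medulla, with a difference of 0.03 (95% interval -0.29 to 0.34). Ptpro ran from 5.67 to 6.35 in lithium medulla and from 5.34 to 6.05 in control medulla, with a difference of 0.26 (95% interval -0.08 to 0.60, limma adjusted p = 0.373). Cd2ap ran from 10.17 to 10.45 in lithium medulla and from 10.23 to 10.61 in control medulla (difference -0.12, 95% interval -0.34 to 0.10). For Nes the difference was 0.02 (95% interval -0.23 to 0.27) and for Clic5 -0.02 (95% interval -0.49 to 0.46). The sign of the difference turned for Nphs1 and Nes when arrays were centred on their medians or quantile normalised anew, and for Clic5 after the new quantile normalization. Of the other podocyte genes 23 were tested in medulla, 0 were called and their median difference was -0.01, with Plce1 at -0.03 and Trpc6 at 0.19, both short of the threshold.

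**Figure D2:**
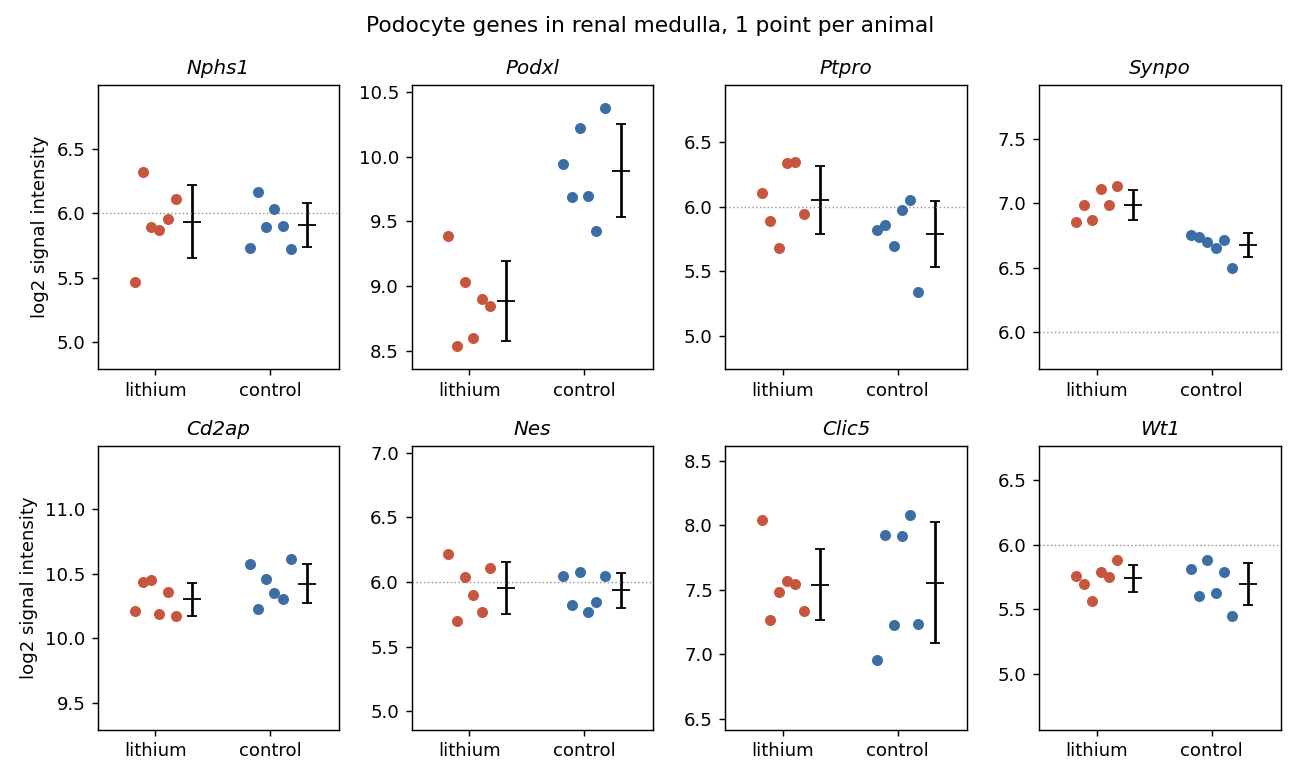
Log2 signal intensity of the 8 podocyte genes in renal medulla, 1 point per animal, with lithium left of control (6 arrays each) and the mean ± SD beside each group. A dotted line marks the filter at 6. The 6 lithium arrays of Podxl lie below the 6 controls, those of Synpo lie above, and Wt1 is under the filter throughout.

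Podxl is made by vascular endothelium as well as by podocytes, and the endothelial list was set beside it. Of 11 endothelial genes tested in medulla 9 had a negative difference, and their median was -0.47, against -0.01 over all clusters tested. Of the 11, 1 was called, where 0.356% of all clusters were called lower. This was Emcn (endomucin, a sialomucin of capillary and venous endothelium). Emcn was lowest at 8.92 and highest at 9.86 in lithium medulla, against 9.86 and 10.80 in control medulla, and the highest lithium array (animal 6) lay level with the lowest control array (animal 29). Its log2 difference was -0.91 with a standard error of 0.19 (limma adjusted p = 0.0462). This call was lost without the filter (adjusted p = 0.0581), in the unmoderated two-way fit (adjusted p = 0.125) and without any 1 of 10 of the 12 animals. In cortex the difference of Emcn was 0.05 (adjusted p = 0.946).

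The mean of the 11 endothelial genes was 8.37 ± 0.18 in lithium medulla (8.11 to 8.66) and 8.78 ± 0.21 in control medulla (8.51 to 9.01, SD, n = 6 each). Across the 12 medulla arrays the deviation of Podxl from its diet mean followed that of the endothelial mean with r = 0.972, and followed Emcn with 0.944, Plvap (a protein of endothelial fenestrae and caveolae) with 0.932 and Cd34 (an endothelial sialomucin) with 0.907. All 11 endothelial genes had a positive r with Podxl, the lowest being Ehd3 at 0.151. These correlations are a description over arrays that share scan groups and normalization. An r of Podxl with the other lists or with all genes is not given here, so these values do not set the endothelial genes apart. The podocyte genes themselves did not share 1 sign with Podxl in these arrays. Nes had an r of 0.77 and Cd2ap of 0.397 with it, while Nphs1, which lay at the filter in medulla, had -0.684, Synpo -0.636, Ptpro -0.535 and Clic5 -0.265. In lithium minus control medulla, the proximal tubule list was negative in 12 of 12 genes (median -0.67, 0 called), with a mean of 7.23 (6.62 to 7.91) in lithium medulla and 7.89 (7.24 to 8.75) in control medulla, and the list of inner medulla and papilla was negative in 5 of 6 (median -0.60, 0 called) and that of the thick ascending limb in 6 of 6 (median -0.59, 0 called). The mesangial and pericyte list was positive in 7 of 8 (median 0.30, 0 called) and the parietal epithelial list in 4 of 6 (median 0.175, 0 called). The median over all clusters tested in medulla was -0.01. The part of tissue content in the Podxl difference was not tested.

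**Figure D3:**
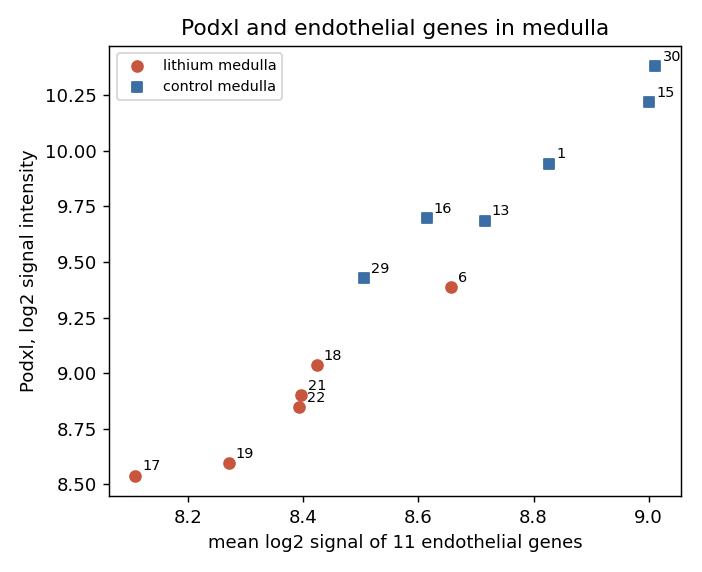
Podxl against the mean of 11 endothelial genes in renal medulla, both as log2 signal intensity, 1 point per array labelled with its animal, circles for lithium and squares for control. Lithium arrays lie between 8.54 and 9.39 for Podxl and control arrays between 9.43 and 10.38, and Podxl rises with the endothelial mean within both groups.

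The lithium differences of the 2 tissues were then set against each other in 1 fit over 24 arrays. None of the 8 podocyte genes passed (0 of 8), where 0.0915% of 16388 clusters did (15 clusters, or 5 with the animal as a replicate block). Podxl and Synpo were the 2 of them with an unadjusted p under 0.05 in limma. The difference of Podxl in medulla minus that in cortex was -0.88 (95% interval -1.44 to -0.33, limma adjusted p = 0.236), and it passed without scan group in the fit (adjusted p = 0.0409). For Synpo the value was 0.32 (adjusted p = 0.299) and for Nphs1 0.35 (adjusted p = 0.492). A difference between the tissues in the lithium effect on Podxl was therefore not shown, although the call was made in medulla and not in cortex.

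How far the podocyte genes mark cortex was read from control medulla against control cortex, a contrast in which 75.4% of clusters were called, with 66.8% higher and 8.65% lower in medulla. Of the 8 genes 5 were lower in control medulla and 2 were higher. Nphs1 and Ptpro differed most. Nphs1 averaged 5.91 ± 0.17 in control medulla and 7.51 ± 0.26 in control cortex, a log2 difference of -1.61 (SE 0.14, limma adjusted p = 1.305e-08). Ptpro averaged 5.79 ± 0.25 in control medulla and 7.42 ± 0.55 in control cortex, a difference of -1.63 (SE 0.22). No control medulla reached the lowest control cortex for either gene. Clic5 was lower by a log2 difference of -1.12 (SE 0.18), Wt1 by -0.87 (SE 0.12) and Nes by -0.51 (SE 0.12). Nphs1, Ptpro, Wt1 and Nes averaged under the filter of 6 in control medulla, where the size of a difference is less certain. Of the other podocyte genes on the 4 lists 25 were tested. Of these 18 were higher in control medulla, as were 66.8% of all clusters, and 4 were lower, against 8.65%. Among the 4 was Ddn (dendrin, a synaptopodin-interacting protein of the foot process) at -0.88.

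The other members were not called lower in control medulla on the values as deposited. Cd2ap, which tubular epithelium also expresses, averaged 10.42 ± 0.15 in control medulla and 9.15 ± 0.27 in control cortex, higher by 1.27 (SE 0.12, limma adjusted p = 3.637e-08). Podxl averaged 9.89 ± 0.36 in control medulla and 9.41 ± 0.31 in control cortex, a difference of 0.48 (adjusted p = 0.0217) that did not pass once arrays were centred on their medians (0.12, adjusted p = 0.585) or without control animal 1, 15 or 30 (adjusted p between 0.0518 and 0.0806). Synpo averaged 6.68 ± 0.09 in control medulla and 6.76 ± 0.07 in control cortex, a difference of -0.08 (adjusted p = 0.35) that passed after centring (-0.44, adjusted p = 6.98e-05). Medulla arrays had medians 0.37 above those of cortex, and after centring the calls over all clusters were 6110 higher and 3243 lower, against 10941 and 1418 as deposited. On the values as deposited, all 11 endothelial genes were called higher in control medulla, as were 66.8% of all clusters. Of 12 proximal tubule genes 11 were called lower, against 8.65% of all clusters. Of 6 genes of inner medulla and papilla 4 were called higher and 0 lower (list calls with the same fit).

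**Figure D4:**
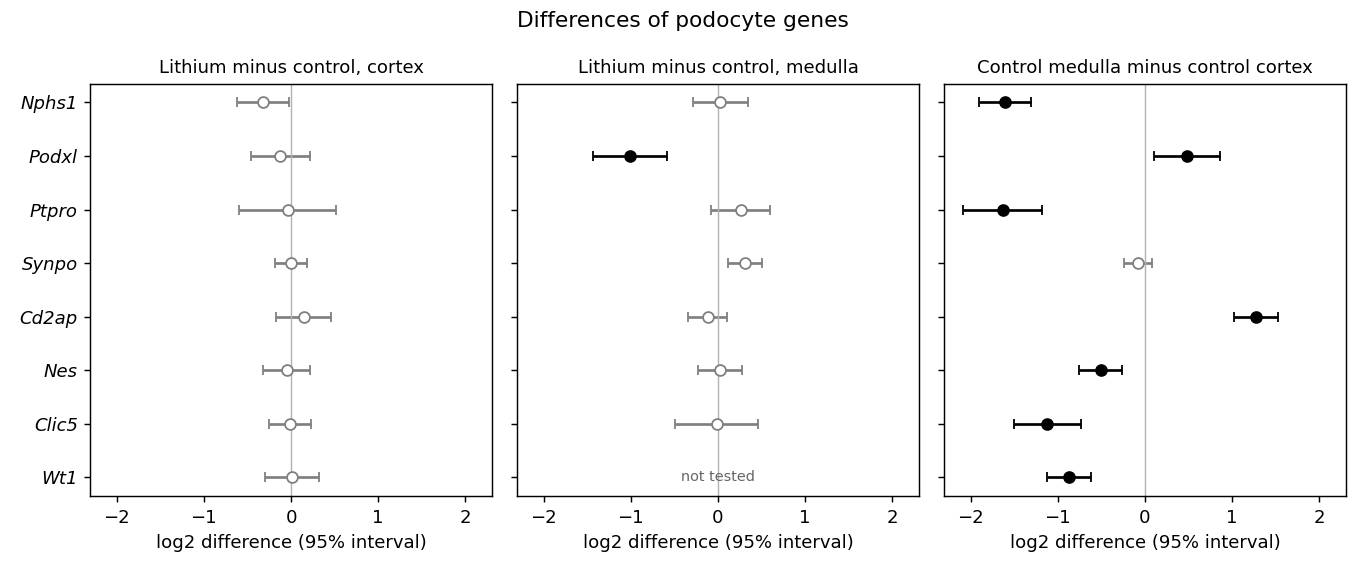
Log2 differences of the 8 podocyte genes with 95% intervals for lithium minus control in cortex, lithium minus control in medulla and control medulla minus control cortex. Filled black points have an adjusted p under 0.05 with limma and open grey points do not. Podxl is the filled point in the medulla panel, at -1.01, while the right panel shows 5 genes lower and 2 higher in medulla.

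Within cortex the podocyte genes varied together from array to array. Deviations of Nphs1, Podxl, Ptpro, Wt1 and Nes from their diet means had an r between 0.771 and 0.952 in all 10 pairs over 11 arrays, with Nphs1 and Podxl at 0.952. Synpo did not take part, with -0.45 against Nphs1 and -0.22 against Podxl, and Clic5 and Cd2ap stood between, with 0.228 and 0.539 against Nphs1. The mean deviation of the 8 genes was highest in control animal 13, at 0.32, and lowest in control animal 1, at -0.39, and lay between -0.09 and 0.10 in the other 9 arrays. Animals 1 and 13 shared a scan group, in which removal of the scan effect sets a high array against a low one. Without these 2 animals, a choice made after the values were seen, the 10 pairs had an r between 0.327 and 0.86, with Nphs1 and Podxl at 0.801. The points are arrays of tissue pieces that share normalization, and the amount of glomerular tissue in each piece was not measured.

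**Figure D5:**
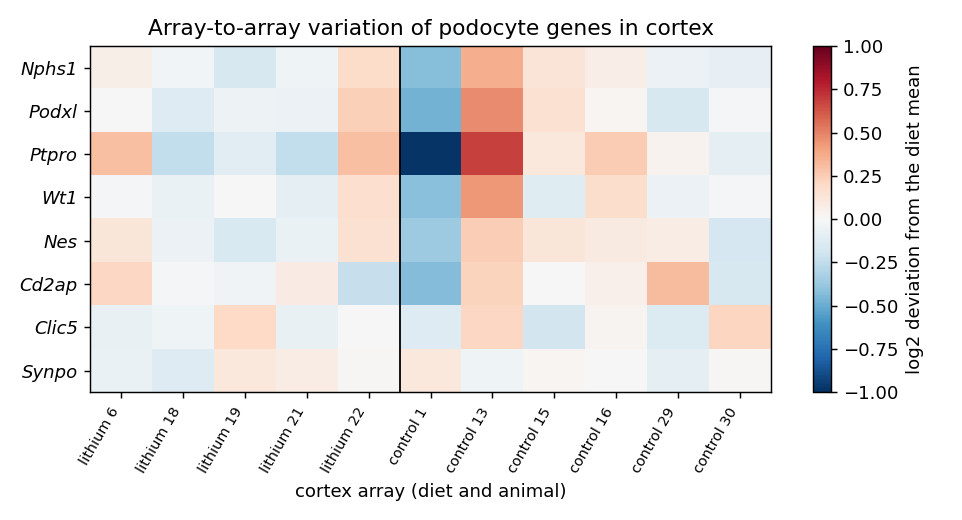
Deviation of each podocyte gene from the mean of its diet group in cortex, in log2 units, by array, with 5 lithium arrays left of the line and 6 control arrays right of it. Nphs1, Podxl, Ptpro, Wt1 and Nes share their pattern, low in control animal 1 and high in control animal 13, while Synpo does not.

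The genes whose deviations were most like the mean deviation of the 8 over the 11 cortex arrays, of 8288 genes ranked, were Surf2 (r = 0.978), Gpr21 (0.977), Chd3 (0.973), Ddit3 (0.973) and Srpk1 (0.969). None of them was on a podocyte list, and 0 of the 5 ranked so in medulla. Among 23 other podocyte genes r was positive for 18 and negative for 5, with a median of 0.521, from 0.93 for Pard3 (a polarity protein) down to -0.472 for Crb2 (a polarity protein of the slit diaphragm). The 6 genes of the thick ascending limb ran from 0.259 for Ptger3 to 0.893 for Cldn16, with a median of 0.763. The 11 endothelial genes ran from -0.9 for Plvap to 0.774 for Emcn, with a median of -0.01, and the medians of the other lists of cell types lay between -0.02 and 0.354.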

How the data were processed

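Total RNA of cortex and medulla from 12 animals was hybridised to Affymetrix arrays, which the methods call both Rat Gene 1.0 ST and Rat Exon 1.0 ST. The authors deposited 28894 transcript clusters as log2 signal intensities. In Partek, they corrected the background by RMA, quantile normalized the arrays, took log2 and summarised probes by median polish. They removed scan date within each tissue by an ANOVA on treatment and scan date and averaged probe sets. RMA, Partek and the build rn4 are named in the processing notes of the submitters. No counts exist, and the number of arrays limits the precision.

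Groups came from the sample titles. Symbols came from the platform annotation, updated through gene identifiers, and the cluster with the highest mean stood for a gene with several. The lists were those of podocytes and their neighbours in the kidney. The members and lists were chosen with earlier results of these data known. Named genes were the 8 members, Plce1 and Trpc6, changed genes of each list, and the 5 most similar genes. Emcn was added by the same rule as a called endothelial gene, while Crb2, Cdkn1c, Lamb2, Cdc42ep5, Ddn, Pard3, Cldn16, Ptger3, Plvap, Cd34 and Ehd3 were read after their values were seen.

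Scan groups were recovered from combinations of arrays with no residual variance. They were animals 1, 6, 13 and 17, animals 15, 16, 18 and 19, and animals 21, 22, 29 and 30, except that animal 17 stood alone in cortex. Scan dates, not given in the sources used here, could not be set beside them. Fits used limma 3.58.1 in R 4.3.3 with diet and scan group, with 7 residual degrees of freedom in cortex and 8 in medulla, and Benjamini-Hochberg adjustment at 0.05. The contrast of tissues and of the diet effect between tissues used all 24 arrays. Cortex and medulla of an animal carry the same number in the labels and so are paired by animal. The correlation of their deviations ran from -0.0867 to 0.438 over 11 animals, with 6 above 0.1. Alternatives were a fit without scan group, no filter, centring on array medians, repeated quantile normalization, the methods' two-way ANOVA, a trended robust prior, the mean of clusters, the animal as a block, and leaving out each animal. The scripts were tested on simulated data. Figures were drawn with matplotlib 3.10.9 in Python 3.11.15.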

Additional observations from a re-analysis of the deposited data

Results flagged for a closer look

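Clic5 in lithium cortex was the 1 of 32 groups of arrays, over 8 genes, 2 tissues and 2 diets, in which an array stood far from the rest. Animal 19 read 8.86 and the next array 8.65, a gap of 0.753 of the range of the group, above the critical share of 0.71 for 5 arrays. Chance alone marks about 5% of groups by this measure. The same animal had the highest mean of the mesangial and juxtaglomerular list (8.38), the endothelial list (7.72) and the parietal epithelial list (7.89), and the lowest of the proximal tubule list (9.94), among the lithium cortices, and the part of tissue content in the Clic5 value was not tested.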

How the results depend on the processing

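In cortex 0 of 8 podocyte genes passed under every alternative run and without any animal. The count over all clusters there, 79, became 288 without scan group in the fit, 14 with the two-way ANOVA after Benjamini-Hochberg, 143 with that ANOVA at unadjusted p and a fold over 1.5, and 34 to 92 without 1 animal. In medulla 190 clusters became 1052, 37 and 558 under those settings and 50 to 1053 without 1 animal, the highest without lithium animal 6, and the podocyte genes past the test, 1, became 2 without scan group, 0 with the ANOVA after Benjamini-Hochberg, and 0 to 2 without 1 animal. For the difference between tissues 15 clusters became 5 with the animal as replicate block, 9 after centring, 357 without scan group (1 podocyte gene, Podxl) and 5 to 57 without 1 animal. The replicate block changed no call of a podocyte gene. The most similar gene, Surf2, had r = 0.9814 after centring and -0.6475 over medulla arrays. The cause of these changes was not tested. The sign of a difference turned where it was near 0. In cortex Wt1 was -0.00816 after repeated quantile normalization. In medulla Nphs1 and Nes were -0.0278 and -0.0342 after centring and -0.0284 and -0.0438 after quantile normalization, and Clic5 was 0.025 after it. Between tissues Clic5 was 0.0665 with the replicate block and Wt1 was -0.0134 after centring. Without 1 animal the cortex difference of Synpo ran from -0.0366 to 0.0317, Wt1 from -0.0726 to 0.0978, Ptpro from -0.236 to 0.0976, Nes from -0.12 to 0.00156, Clic5 from -0.0708 to 0.048 and Emcn from -0.102 to 0.101. In medulla Nphs1 ran from -0.0699 to 0.143, Nes from -0.045 to 0.0842 and Clic5 from -0.167 to 0.113. Between tissues Wt1 ran from -0.0746 to 0.148, Nes from -0.00977 to 0.167 and Clic5 from -0.166 to 0.167. Depth has no counterpart on these arrays, and Nphs1, Ptpro and Nes lay near the filter in medulla.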

Other observations

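Since 5 of the podocyte genes varied together in cortex, each of them was also read against the mean of the other 4 on the same array, as a change from the control mean of that difference. This reading was chosen after the values were seen and carries no test. Nphs1 lay between -0.36 and -0.18 in lithium cortex (median -0.31, 5 arrays) and between -0.09 and 0.14 in control cortex (median -0.02, 6 arrays), so that every lithium array lay below every control. All 13766 cortex clusters tested were read against the mean of Podxl, Wt1, Ptpro and Nes in the same way. Of these 0.225% had every lithium array below every control and 0.697% every one above. As deposited the shares were 0.719% and 1.85%, and 2.57% had no overlap in either direction. The 4 reference genes were taken because they varied with Nphs1 over these same arrays (r between 0.866 and 0.952). Subtracting their mean therefore narrows the spread of Nphs1 but not that of unrelated clusters. The 0.225% cannot measure how rare the Nphs1 arrangement is. The other 4 genes overlapped between the diets in the same reading, with mean differences of lithium minus control of -0.02 for Podxl, 0.14 for Wt1, 0.08 for Ptpro and 0.07 for Nes. Within lithium and control cortex the low array of control animal 1, which lay inside the lithium range for Nphs1 as deposited, had the highest value of Nphs1 in this reading. On that array Ptpro deviated from its diet mean by -0.98, and so lowered the reference mean most. The deviation there was -0.47 for Podxl, -0.42 for Wt1, -0.36 for Nes and -0.42 for Nphs1.

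Of the 23 other podocyte genes tested in cortex 12 had a negative difference. Among these Cdkn1c (a cell cycle inhibitor of the mature podocyte) was nearest to Nphs1 in cortex, with a mean of 6.66 ± 0.15 in lithium cortex and 6.92 ± 0.17 in control cortex and a log2 difference of -0.26 (limma adjusted p = 0.624). Crb2 (a polarity protein of the slit diaphragm) had 6.04 ± 0.16 in lithium cortex and 6.27 ± 0.12 in control cortex, a difference of -0.23 (adjusted p = 0.632). In the other direction, Lamb2 (a laminin chain of the glomerular basement membrane) had a difference of 0.31 (adjusted p = 0.681) and Cdc42ep5 (an effector of the small GTPase Cdc42) one of 0.22 (adjusted p = 0.771). None of the 4 passed the test, and they were picked after their values were seen.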
